A study of Homo sapiens with 24 samples.

Results

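The genes described here are 36 nuclear receptor genes other than the glucocorticoid receptor (GR) gene, in A549 cells exposed to dexamethasone (dex) or vehicle. The members were set as a list of gene symbols, and the count table lists 33087 genes in all. Every member had at least 1 transcript row in the table, 35 had a count in some library, and 30 had enough counts to be tested. A549 is an established human cell line from a lung adenocarcinoma, with no engineered allele in the labels. Cells received 100 nM dex, a synthetic glucocorticoid (GC) that binds GR, or the vehicle ethanol (EtOH, 0.02% v/v), and their poly-A RNA was sequenced at 6 times, every 2 hours from 1 to 11 hours. Each treatment and time point had 2 libraries, which made 12 groups and 24 libraries. All cells are of 1 cancer line, and the labels call the 2 libraries of a group biological replicates, so the tests measure the spread between these replicates only.

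Nuclear receptors are transcription factors with a DNA-binding domain and a ligand-binding domain, and many of them change the transcription of their target genes when a lipophilic ligand binds. Steroid receptors respond to steroid hormones, the retinoid, thyroid hormone, vitamin D and lipid receptors mostly bind DNA together with a retinoid X receptor, and orphan receptors have no established natural ligand or act without one. The dex used here is a ligand of GR, which belongs to the same superfamily, and several members below share coregulators with GR.

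The total count of a library was 7813353 to 13619043 with EtOH and 6708864 to 13748598 with dex. Of 5 genes that GCs are known to induce, FKBP5, TSC22D3, PER1, DUSP1 and SGK1, each was higher in 12 of 12 dex libraries than in any EtOH library. The 8 markers of this lung epithelial line summed to 7223 to 9622 CPM (counts of a gene per 1000000 counts of its library, with TMM scaling) with EtOH and 8623 to 13928 CPM with dex, and 7 of them were called on the mean over the time points, 3 higher and 4 lower, from EPCAM with a log2 fold change of -0.55 to KRT8 with 0.94. The 7 markers of other cell types summed to 15.1 to 26.3 CPM with EtOH and 9.31 to 28.9 CPM with dex. COL1A1, COL3A1 and CD68 were lower with dex on the mean over the time points, though COL1A1 was called as higher at 3 hours. DCN, too low to be tested, had 12 counts with EtOH and 25 with dex. CD3E had no count, PTPRC and VWF were near 0, and the part of these shifts in the results below was not tested.

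Most of the nuclear receptor genes were expressed in vehicle cells. The mean level over the 12 EtOH libraries was at least 0.5 CPM for 31 of the 36 members and at least 1 CPM for 28. On the scale of CPM per kilobase of transcript, RARB, the gene of retinoic acid receptor beta, was the highest, with 27.4 ± 1.53 (SD, n = 12). It was followed by NR1H2 (LXR beta, an oxysterol sensor) at 22.0 ± 2.87, PPARG (a fatty acid sensor that drives fat cell differentiation) at 19.9 ± 1.66, NR5A2 (LRH-1, an orphan receptor of liver, pancreas and gut) at 19.8 ± 1.91 and NR2F2 (COUP-TF2) at 17.4 ± 0.971. RARB was the second member of the set by CPM without division by length, with 67.0 to 79.0 CPM in the EtOH libraries, below NR5A2 with 71.7 to 103 CPM. In the order of levels per kilobase, the ranges over the 12 EtOH libraries of neighbouring members overlapped everywhere but at a pair of places. NR2F1 (2.16 to 3.17 CPM per kilobase) lay above NR6A1 (1.31 to 1.76), and NR1H4 (0.272 to 0.817), the bile acid receptor FXR, lay above ESR1 (0.0473 to 0.231).

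The 6 members that were not tested had few reads in either treatment. PGR, the progesterone receptor gene, had no count in any of the 24 libraries, and 3 counts in their total of 244486533 would be 0.0123 CPM, the upper limit that a count of 0 allows for counting error. NR3C2, the gene of the mineralocorticoid receptor, which also binds GCs, had 8 counts with EtOH and 6 with dex. ESRRG had 4 counts with EtOH and 2 with dex, and NR1I2 (PXR, a drug sensor of liver and gut that dex can activate at high dose) had 3 and 3. The counts of ESR2 were 36 with EtOH and 40 with dex, and those of RORA were 69 and 63. Without the low-count filter none of the 5 genes with counts was called in any comparison, with a smallest adjusted p of 0.436 (NR3C2).

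**Figure D1:**
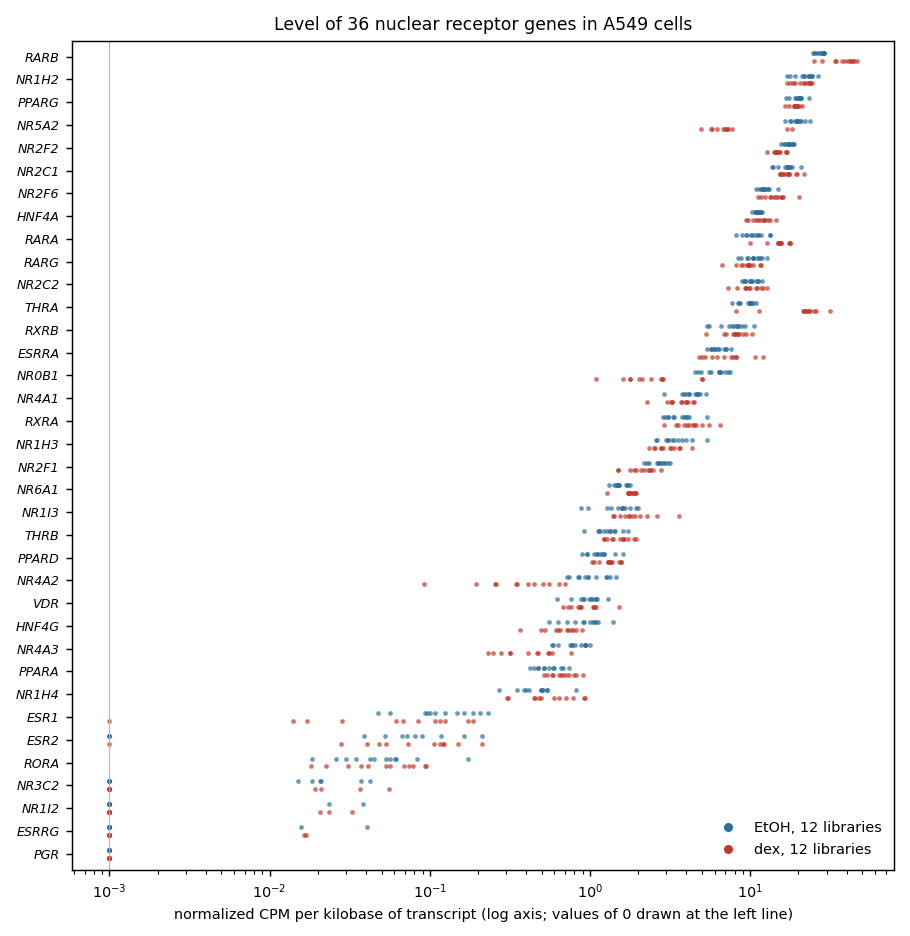
Level of each of the 36 nuclear receptor genes in CPM per kilobase of transcript (log axis), with 1 point for each of 12 EtOH libraries (blue) and 12 dex libraries (red), ordered by the mean EtOH level. RARB was highest at 27.4, PGR was at 0 in every library, and the dex points of NR5A2, NR0B1 and NR4A2 lie mostly to the left of the EtOH points while those of THRA lie mostly to the right.

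The first comparison asked which receptor genes differed between dex and EtOH at each time point. A gene was called where the adjusted p of edgeR's quasi-likelihood test was at most 0.1. No member was called at 1 hour, where 1.06% of the 15325 tested genes were. ESRRA and NR2F2 had an unadjusted p under 0.05 at that time, and DESeq2 called 0 members and gave 0 an unadjusted p under 0.05. A call among the members appeared without dex replicate 2, where more of all tested genes were called too. At 3 hours 9 of the 30 tested members (30%) were called, 4 higher and 5 lower with dex (14.1% of all tested genes called). At 5 hours there were 10 (33.3%), with 6 higher and 4 lower (25.0% of all tested genes). At 7 hours there were 11 (36.7%), with 6 higher and 5 lower (28.2% of all tested genes). At 9 hours 6 (20%) were called, 3 in each direction (19.8% of all tested genes). At 11 hours 8 (26.7%) were called, with 3 higher and 5 lower (9.13% of all tested genes). Over the time points from 1 to 11 hours the median log2 fold change of the tested members ran from -0.08 to 0.09, beside -0.01 to 0.01 over all tested genes, since members moved in both directions.

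These counts depended on the test and on single libraries. DESeq2 called 5 members at 3, 7, 9 and 11 hours and 9 at 5 hours, in each case a subset of those called by edgeR. Of the 15325 tested genes DESeq2 called 1208 at 3 hours, 2348 at 5, 2468 at 7, 1834 at 9 and 1032 at 11. By edgeR 2166, 3838, 4322, 3036 and 1399 were called at these times. DESeq2 left out NR2F1, NR4A3, PPARA and RARB at 3 hours and NR4A3 at 5 hours. At 7 hours it left out ESRRA, HNF4G, NR2F2, NR2F6, NR4A2 and RXRA. RARA was left out at 9 hours, and NR2F1, NR4A3 and RARB at 11 hours. At 7 hours fewer members were called without either dex replicate. At 11 hours more were called without dex replicate 1 and fewer without EtOH replicate 1. The number called over all tested genes moved in the same direction in each of these fits, which leave 1 library in a group. The following 5 receptor genes were called at each of the 5 times from 3 to 11 hours, THRA, RARA and RARB as higher and NR5A2 and NR0B1 as lower. NR4A2 was called at 4 times and NR4A3 at 3, ESRRA, NR2F1 and NR2F6 at 2, and HNF4G, NR1H3, NR1I3, NR2F2, PPARA and RXRA at 1.

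On the mean of the differences over the 6 time points, 19 of the 30 tested members (63.3%) were called, 10 higher and 9 lower with dex. Of all tested genes, 36.0% were called. The median over the tested members was 0.01 and that over all tested genes was -0.01. NR4A1, NR6A1, RARG and THRB were called on this mean and at no single time point. Of the 10 tested members called in no such comparison, the log2 fold changes at single times ran from -2.05 to -0.14 for ESR1, from -0.74 to 0.98 for NR1H4, and from -0.41 to 0.49 for HNF4A, NR1H2, NR2C1, NR2C2, PPARD, PPARG, RXRB and VDR together. In bulk RNA a lower value from fewer cells that make a transcript and one from less RNA per cell cannot be told apart.

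**Figure D2:**
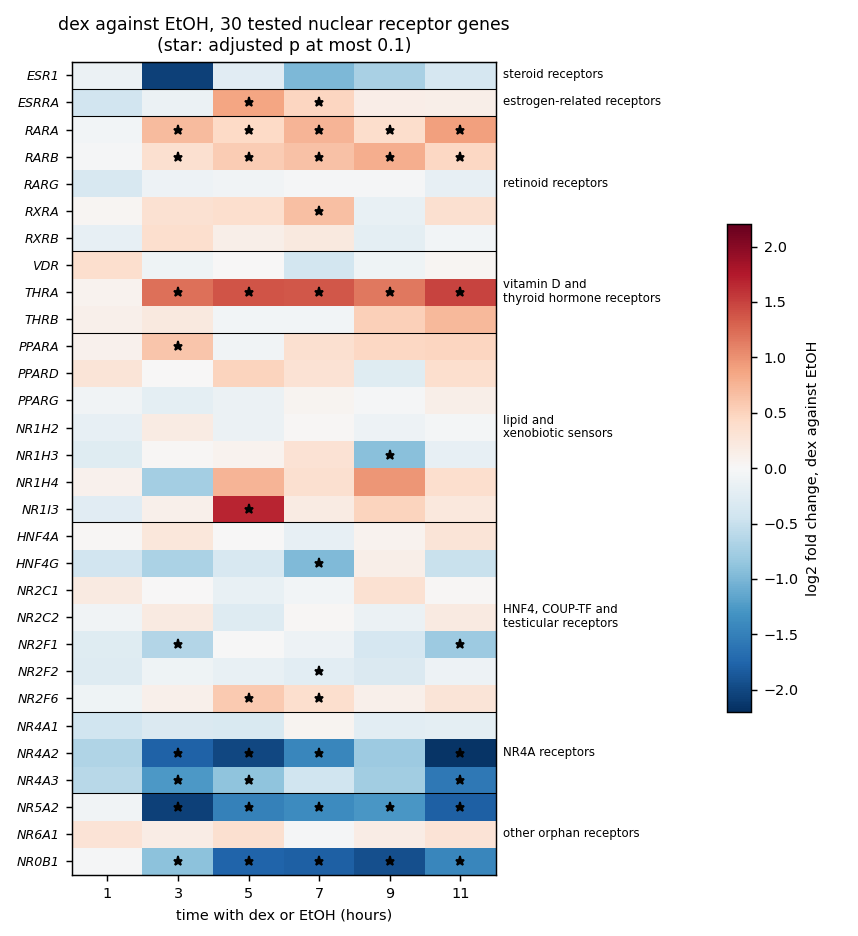
Log2 fold change of dex against EtOH for the 30 tested nuclear receptor genes (rows, grouped by receptor family) at 1 to 11 hours (columns), from edgeR fits of 2 against 2 libraries, with red for higher and blue for lower with dex and a star where the adjusted p was at most 0.1. No star stands at 1 hour, and the rows of THRA, RARA, RARB, NR5A2 and NR0B1 have a star at each later time.

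The thyroid hormone receptors bind triiodothyronine and regulate metabolic genes, and THRA had the largest rise of the set on the mean over the time points. The gene (ENSG00000126351.12) lies on chromosome 17 at 40058290 to 40093867 of GRCh38, plus strand. At 1 hour THRA stood at 30.7 and 42.8 CPM in the 2 dex libraries and at 29.2 and 39.6 CPM in the 2 EtOH libraries. At 3 hours the dex libraries held 84.0 and 86.5 CPM and the EtOH libraries 32.4 and 41.2 CPM, at 5 hours 95.0 and 98.2 against 37.7 and 36.8, and at 7 hours 81.6 and 83.7 against 31.6 and 32.9. At 9 hours the values were 80.7 and 88.7 CPM with dex and 37.5 and 39.1 CPM with EtOH, and at 11 hours 89.3 and 119 against 37.5 and 38.0. The treatments overlapped at 1 hour, and every dex library lay above every EtOH library of THRA from 3 hours on. The log2 fold change was 0.08 ± 0.17 (SE) at 1 hour, 1.21 ± 0.12 at 3 hours (adjusted p = 2.75e-08), 1.39 ± 0.11 at 5 hours (adjusted p = 1.25e-13) and 1.48 ± 0.17 at 11 hours (adjusted p = 0.000108).

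The rise of THRA was seen on most of its transcript rows. The row with most reads, ENST00000450525.2, held 59.9% of the gene's 14366 counts and had log2 fold changes of 1.22, 1.25, 1.36, 1.13 and 1.57 from 3 to 11 hours. ENST00000546243.1, with 9.67% of the counts, had 1.49, 1.31, 1.28, 1.50 and 1.18, and both rows were called at each of these times. Reads of isoforms that share exons can be split between rows, so the rows are not separate measurements of the isoforms. Exons of THRA overlap those of NR1D1, the REV-ERB alpha gene on the opposite strand, over 263 bases, which is 3.78% of the exon length of THRA. NR1D1 had 794 counts in the 24 libraries, and its own difference was called at no time point (mean log2 fold change 0.15 ± 0.12). Whether strand was used in counting is not stated in the sources used here.

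THRB, the second thyroid hormone receptor gene, was lower in level, with 5.79 to 11.0 CPM in the EtOH libraries and 7.71 to 12.3 CPM with dex. Its mean log2 fold change was 0.23 ± 0.09 (adjusted p = 0.0521). At 11 hours THRB was at 11.9 and 10.2 CPM with dex and at 5.79 and 7.76 CPM with EtOH, which did not pass the test (adjusted p = 0.112) but was called in 1 fit over the 24 libraries (adjusted p = 0.0345) and without the low-count filter (adjusted p = 0.0709). VDR, the vitamin D receptor gene, was at 2.73 to 5.64 CPM with EtOH, and its log2 fold change lay between -0.41 and 0.36, with a smallest adjusted p of 0.296.

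The retinoic acid receptors bind all-trans retinoic acid and work as dimers with the retinoid X receptors, and their 3 genes moved unequally. RARA and RARB rose, RARG was lower on the mean over the time points, RXRA was called at 1 time and RXRB at none. The gene of RARB is itself a known target of retinoic acid, through a direct repeat in the promoter of its internal start site. The 250 bases before the RefSeq starts nearest the most counted transcripts of RARB (chr3:25428013-25428262, plus strand) and RARA (chr17:40308930-40309179, plus strand), in the GRCh38.p14 build, are shown since these 2 genes were called at the same times. Capitals mark the matches to the motifs searched on both strands.
RARB: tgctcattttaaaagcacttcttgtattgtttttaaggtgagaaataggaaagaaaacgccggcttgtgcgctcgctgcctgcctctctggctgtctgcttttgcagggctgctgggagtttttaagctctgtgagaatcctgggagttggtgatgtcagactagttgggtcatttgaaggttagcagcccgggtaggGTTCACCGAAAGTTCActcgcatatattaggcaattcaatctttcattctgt
RARA: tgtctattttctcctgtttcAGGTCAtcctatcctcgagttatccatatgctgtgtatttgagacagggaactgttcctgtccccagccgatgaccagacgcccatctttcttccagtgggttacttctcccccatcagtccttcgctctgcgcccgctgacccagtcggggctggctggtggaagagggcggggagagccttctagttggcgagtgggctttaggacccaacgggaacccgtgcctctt
The RARB window holds GTTCA and AGTTCA as a direct repeat with 5 bases between them, at -52 to -37 from the start. The pattern searched was that of the known RARB repeat, so a match in this window was fixed in advance. Of all 35116 RefSeq windows of this length, 11 (0.0313%) hold that repeat. The RARA window holds AGGTCA, the 6-base motif bound by many receptors of the family, at -230 to -225, and 12.1% of all windows hold it. Neither window holds AGAACA, the arm of a GR binding element, which is in 12.4% of all windows, and a GR site elsewhere was not searched for.

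RARB stood at 76.5 and 67.7 CPM with dex and 79.0 and 67.9 CPM with EtOH at 1 hour. At 3 hours it was at 92.7 and 91.3 CPM with dex against 77.1 and 67.0 CPM with EtOH, at 5 hours at 114 and 111 against 77.2 and 77.9, and at 7 hours at 115 and 122 against 74.4 and 78.5. At 9 hours the values were 119 and 126 CPM with dex against 72.3 and 70.2 CPM with EtOH, and at 11 hours 105 and 101 against 76.6 and 75.8. The dex libraries of RARB were above the EtOH libraries at each time from 3 hours, with the widest gap at 9 hours. The log2 fold change of RARB was 0.36 ± 0.11 (SE) at 3 hours (adjusted p = 0.0318), 0.80 ± 0.11 at 9 hours (adjusted p = 0.000248) and 0.46 ± 0.13 at 11 hours (adjusted p = 0.066). All 4 transcript rows of RARB were called at 7 and 9 hours. The exons of RARB overlap those of TOP2B on the opposite strand over 28 bases.

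RARA was at 21.9 and 27.7 CPM with dex and 22.4 and 28.8 CPM with EtOH at 1 hour. At 3 hours it was at 32.4 and 38.5 CPM with dex against 19.5 and 24.3 CPM with EtOH, at 5 hours at 34.1 and 33.1 against 25.4 and 24.4, and at 7 hours at 32.4 and 33.7 against 17.7 and 22.1. At 9 hours RARA stood at 33.9 and 33.5 CPM with dex against 23.4 and 28.8 CPM with EtOH, and at 11 hours at 38.5 and 37.8 against 20.9 and 20.5. The treatments did not overlap from 3 hours on. RARA had a log2 fold change of 0.69 ± 0.14 (SE) at 3 hours (adjusted p = 0.00117), 0.39 ± 0.14 at 9 hours (adjusted p = 0.0968) and 0.90 ± 0.16 at 11 hours (adjusted p = 0.00351). DESeq2 did not call RARA at 9 hours.

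RARG was at 20.3 to 30.8 CPM in the EtOH libraries and 16.1 to 28.0 CPM in the dex libraries. Its mean log2 fold change of -0.14 ± 0.06 passed the test with edgeR (adjusted p = 0.0643) but was not called by DESeq2. RXRA, the common dimer partner, was at 8.14 and 10.2 CPM with dex and 5.46 and 6.07 CPM with EtOH at 7 hours, a log2 fold change of 0.66 ± 0.21 (adjusted p = 0.0173). Without dex replicate 2 that difference was 0.51 (adjusted p = 0.223). The other partner, RXRB, was at 14.8 to 28.9 CPM with EtOH and had log2 fold changes from -0.21 to 0.37.

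**Figure D3:**
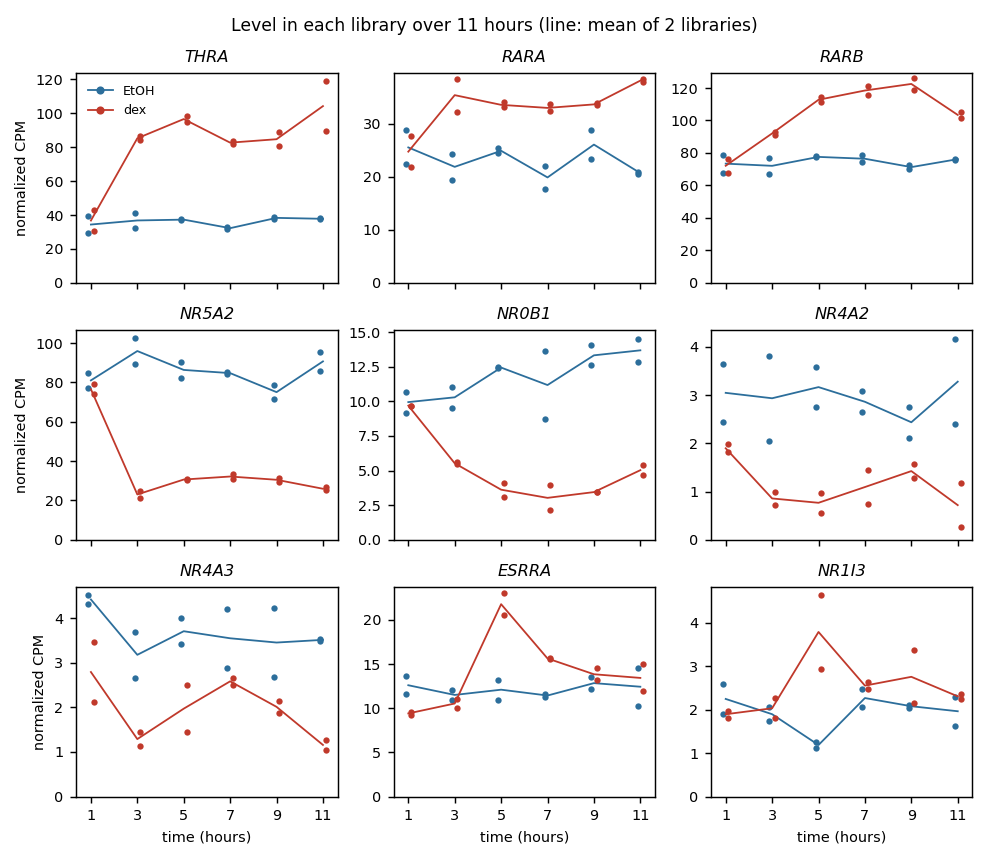
Normalized CPM of 9 nuclear receptor genes in each dex library (red) and EtOH library (blue) from 1 to 11 hours, with lines through the mean of the 2 libraries of a group and axes from 0. The treatments of THRA, RARA, RARB, NR5A2 and NR0B1 overlap at 1 hour and lie apart at every later time, and ESRRA and NR1I3 lie furthest apart at 5 hours.

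Among the orphan receptors outside the larger families, NR5A2 and NR0B1 fell. NR5A2 encodes LRH-1, which drives steroid and bile acid genes, and NR0B1 encodes DAX1, which lacks the usual DNA-binding domain and represses LRH-1 and its relative SF-1. NR5A2 (ENSG00000116833.13, chromosome 1 from 200027602 to 200177424, GRCh38) was at 79.2 and 73.9 CPM with dex and 84.8 and 77.3 CPM with EtOH at 1 hour. At 3 hours it was at 21.4 and 24.6 CPM with dex against 103 and 89.4 CPM with EtOH, at 5 hours at 30.9 and 30.3 against 82.1 and 90.5, and at 7 hours at 33.5 and 30.8 against 84.2 and 85.2. At 9 hours the values were 29.5 and 31.5 CPM with dex against 78.4 and 71.7 CPM with EtOH, and at 11 hours 25.0 and 26.8 against 86.0 and 95.4. All 10 dex libraries from 3 hours on were below all 12 EtOH libraries. The log2 fold change of NR5A2 was -0.08 ± 0.12 (SE) at 1 hour, -2.05 ± 0.12 at 3 hours (adjusted p = 1.74e-12), -1.28 ± 0.13 at 9 hours (adjusted p = 1.43e-05) and -1.79 ± 0.15 at 11 hours (adjusted p = 9.75e-06).

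Each tested transcript row of NR5A2 was lower at 3 hours. ENST00000367362.3, with 65.7% of the 15020 counts, had a log2 fold change of -2.09 then, and ENST00000236914.3, with 21.4%, had -1.89. The fall of NR0B1 was slower. NR0B1 (ENSG00000169297.7, X chromosome from 30304206 to 30309598, minus strand) was at 9.69 CPM in both dex libraries and at 10.7 and 9.19 CPM in the EtOH libraries at 1 hour, and at 5.46 and 5.58 against 9.55 and 11.0 CPM at 3 hours. At 5 hours the dex libraries held 4.13 and 3.10 CPM and the EtOH libraries 12.4 and 12.5, at 7 hours 3.93 and 2.11 against 8.74 and 13.6, at 9 hours 3.43 and 3.45 against 14.1 and 12.6, and at 11 hours 4.64 and 5.41 against 12.8 and 14.5. The groups of NR0B1 did not overlap from 3 hours on, and the gap was widest at 9 hours. The change was -0.90 ± 0.20 (SE) at 3 hours (adjusted p = 0.00342), -1.93 ± 0.22 at 9 hours (adjusted p = 4.73e-05) and -1.43 ± 0.23 at 11 hours (adjusted p = 0.00152).

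Since LRH-1 binds DNA through an extended form of AGGTCA, the match in the window before the RefSeq start of each of these 2 genes is shown with 12 bases on either side and the 6 matched bases in capitals. Only these 6 bases were searched for, without the bases that extend them. Neither match is thereby shown to be an LRH-1 site. The NR5A2 stretch is chr1:200027614-200027643 on the plus strand and the NR0B1 stretch chrX:30309516-30309545 on the minus strand, both in GRCh38.p14.
NR5A2: atggtttacagcAGGTCActaatgttggaa
NR0B1: ttcgaaccaccgAGGTCAtgggcgaacaca
The match lies at -84 to -79 from the RefSeq start of NR5A2 and at -143 to -138 from that of NR0B1. The most counted transcripts start upstream of these RefSeq starts, at -108 for NR5A2 and -208 for NR0B1, so both matches lie within those transcripts and not before them. The NR0B1 window also holds TGTTCT, the reverse complement of AGAACA, at -193 to -188 from the RefSeq start, which is within the most counted transcript too. Windows were at hand for 32 of the 36 members and are those of RefSeq, and that of PGR, which had no count, was not searched. AGGTCA or its reverse complement was in the windows of RARA, NR1H4, NR5A2 and NR0B1, and AGAACA or TGTTCT in those of RXRB, PPARD, NR1I2 and NR0B1. Each motif was thus in 4 of the windows searched, beside 12.1% and 12.4% of all windows. The most counted transcript starts at -29652 from the RefSeq start for NR1H4 and at -1617 for NR1I2, so these windows are not those before it.

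NR6A1, the germ cell nuclear factor gene, was at 8.52 to 11.5 CPM with EtOH and 8.32 to 12.6 CPM with dex. Its mean log2 fold change was 0.20 ± 0.07 (adjusted p = 0.0329), with no call at a single time.

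The NR4A receptors act without a ligand, and their genes are immediate early genes that respond within minutes to many stimuli. All 3 were lower with dex on the mean over the time points. NR4A2, which encodes NURR1, was at 1.98 and 1.82 CPM with dex and 3.65 and 2.44 CPM with EtOH at 1 hour, at 0.721 and 0.991 against 2.05 and 3.82 at 3 hours, and at 0.977 and 0.554 against 3.59 and 2.74 at 5 hours. At 7 hours it was at 0.732 and 1.45 CPM with dex against 3.08 and 2.64 CPM with EtOH, at 9 hours at 1.57 and 1.27 against 2.76 and 2.12, and at 11 hours at 0.263 and 1.17 against 4.16 and 2.40. All 12 dex libraries were below the lowest of the 12 EtOH libraries. NR4A2 had log2 fold changes of -0.65 ± 0.35 (SE) at 1 hour (adjusted p = 0.821), -2.0 ± 0.42 at 5 hours (adjusted p = 0.000251) and -2.15 ± 0.54 at 11 hours (adjusted p = 0.0314). The level is low, with 375 counts over the 12 EtOH libraries and 127 over the 12 dex libraries.

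NR4A3 (NOR1) was at 3.46 and 2.12 CPM with dex and 4.52 and 4.31 CPM with EtOH at 1 hour and at 1.13 and 1.44 against 3.70 and 2.65 at 3 hours. At 5 hours it was at 2.50 and 1.44 CPM with dex against 4.0 and 3.41 CPM with EtOH, at 7 hours at 2.65 and 2.51 against 2.88 and 4.21, at 9 hours at 2.15 and 1.87 against 2.67 and 4.23, and at 11 hours at 1.05 and 1.26 against 3.53 and 3.5. Both dex libraries were below both EtOH libraries of NR4A3 at each of the 6 times, and 11 of 12 dex libraries were below all EtOH libraries. NR4A3 had log2 fold changes of -1.27 ± 0.36 (SE) at 3 hours (adjusted p = 0.0233), -0.88 ± 0.33 at 5 hours (adjusted p = 0.0515) and -1.58 ± 0.37 at 11 hours (adjusted p = 0.0189). All of these were called by edgeR, and DESeq2 called NR4A3 at none of these times.

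NR4A1 (NUR77), the most abundant of the 3 with 7.19 to 13.3 CPM in the EtOH libraries, was at 5.64 to 11.2 CPM with dex. Its mean log2 fold change was -0.26 ± 0.09 (adjusted p = 0.0304), and no single time was called. The exons of NR4A1 overlap those of AC025259.3 on the opposite strand over 754 bases, 10.3% of its exon length, and that gene had 1029 counts beside the 2420 of NR4A1.

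Of the steroid receptors in the set only ESR1, the estrogen receptor alpha gene, had enough reads to be tested. It had 88 counts over the 12 EtOH libraries and 49 over the 12 dex libraries, and 4 dex libraries were below all EtOH libraries. Its log2 fold change was negative at every time, and the smallest adjusted p was 0.13. ESR1 passed the low-count filter only through EtOH libraries, where its highest count was 12, beside 10 with dex. The sign of its differences is thus not independent of the filter. ESRRA, an orphan receptor that drives mitochondrial genes together with PGC-1 coactivators, was called at 5 and 7 hours. ESRRA was at 20.5 and 23.1 CPM with dex and 13.2 and 11.0 CPM with EtOH at 5 hours, and at 15.6 and 15.7 against 11.3 and 11.6 CPM at 7 hours. At 1 hour both dex libraries (9.59 and 9.23 CPM) were below both EtOH libraries (11.6 and 13.6 CPM), and the groups overlapped at 3, 9 and 11 hours. The log2 fold change of ESRRA was -0.42 ± 0.20 (SE) at 1 hour (adjusted p = 0.715), 0.87 ± 0.17 at 5 hours (adjusted p = 5.68e-05) and 0.47 ± 0.15 at 7 hours (adjusted p = 0.0246). The exons of ESRRA overlap those of TRMT112 on the opposite strand over 284 bases, 9.37% of its exon length, and TRMT112 had 17137 counts beside 3201 of ESRRA.

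Of the 8 lipid and xenobiotic sensors, 7 were tested, and NR1I3, NR1H3 and PPARA were called at 1 time each. NR1I3 encodes CAR, a liver receptor that induces drug-metabolising enzymes. At 5 hours NR1I3 was at 2.93 and 4.65 CPM with dex and 1.13 and 1.25 CPM with EtOH, a log2 fold change of 1.67 ± 0.36 (adjusted p = 0.000412), and both EtOH libraries of that time were the lowest of the 12. The exons of NR1I3 overlap those of TOMM40L on the opposite strand over 661 bases, 20% of its exon length, with 551 counts for NR1I3 and 1515 for TOMM40L, and a single row, ENST00000506209.1, held 55.2% of the NR1I3 counts.

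NR1H3 encodes LXR alpha, an oxysterol sensor that drives cholesterol export. At 9 hours it was at 4.01 and 3.97 CPM with dex and 8.45 and 6.85 CPM with EtOH, a log2 fold change of -0.92 ± 0.24 (adjusted p = 0.0208). Both EtOH libraries of that time were the highest of the 12. The call was lost without dex replicate 1 (adjusted p = 0.16) and without dex replicate 2 (adjusted p = 0.21). NR1H3 shares 189 exon bases with ACP2 on the opposite strand. PPARA, a fatty acid sensor that drives fat oxidation, was at 6.7 and 7.65 CPM with dex and 5.24 and 4.23 CPM with EtOH at 3 hours, a log2 fold change of 0.62 ± 0.23 (adjusted p = 0.0919). That call of PPARA was lost on leaving out any 1 of the 4 libraries, with adjusted p from 0.107 to 0.38, while its mean log2 fold change was 0.31 ± 0.10 (adjusted p = 0.0148). PPARG, the most abundant PPAR gene with 29.6 to 41.1 CPM in the EtOH libraries, had log2 fold changes from -0.22 to 0.13 with a smallest adjusted p of 0.37, and NR1H2 had -0.18 to 0.18.

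The HNF4 and COUP-TF genes encode receptors that occupy direct repeats of the AGGTCA type, HNF4 as a driver of liver and gut genes and the COUP-TFs mostly as repressors. NR2F1 (COUP-TF1) was at 7.73 and 5.58 CPM with dex and 9.75 and 11.0 CPM with EtOH at 3 hours, and at 7.27 and 5.59 against 11.8 and 10.8 CPM at 11 hours. NR2F1 had log2 fold changes of -0.65 ± 0.21 (SE) at 3 hours (adjusted p = 0.04) and -0.80 ± 0.23 at 11 hours (adjusted p = 0.0608). The 3-hour call of NR2F1 was lost without dex replicate 2 (adjusted p = 0.275) or EtOH replicate 2 (adjusted p = 0.185). NR2F2 (COUP-TF2) was at 53.9 and 56.9 CPM with dex and 66.5 and 64.7 CPM with EtOH at 7 hours, a log2 fold change of -0.23 ± 0.09 (adjusted p = 0.0755) that was lost without either dex replicate (adjusted p = 0.383 and 0.197) or without EtOH replicate 1 (adjusted p = 0.151). Over all times 9 of the 12 dex libraries of NR2F2 were below all EtOH libraries, and the mean log2 fold change was -0.21 ± 0.04 (adjusted p = 0.000519).

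NR2F6 (EAR2), the third member of the COUP-TF group, went the other way. It was at 38.2 and 48.1 CPM with dex and 26.9 and 31.3 CPM with EtOH at 5 hours, and at 35.6 and 36.7 against 25.9 and 30.9 CPM at 7 hours. The log2 fold change of NR2F6 was 0.58 ± 0.13 (SE) at 5 hours (adjusted p = 0.000852) and 0.36 ± 0.11 at 7 hours (adjusted p = 0.0162). HNF4G was at 1.46 and 2.51 CPM with dex and 4.37 and 3.23 CPM with EtOH at 7 hours, a log2 fold change of -0.97 ± 0.33 (adjusted p = 0.0294) that was lost without dex replicate 1 (adjusted p = 0.437) or EtOH replicate 1 (adjusted p = 0.214). The more abundant HNF4A, at 52.0 to 59.7 CPM with EtOH, had log2 fold changes from -0.18 to 0.29, with a smallest adjusted p of 0.184. The testicular receptor genes NR2C1 and NR2C2 were called at no time in the tests of 2 against 2 libraries.

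The second comparison asked whether the difference between dex and EtOH changed over the 6 time points. It did for 7 of the 30 tested members (23.3%), ESRRA, RARA, RARB, NR1I3, NR5A2, THRA and NR0B1, where 15.6% of all tested genes were called. DESeq2 called 6 of these, without NR1I3. For NR5A2 the difference was near 0 at 1 hour and largest in size at 3 hours, for NR0B1 and RARB it was largest in size at 9 hours, and for THRA and RARA at 11 hours. ESRRA and NR1I3 had the largest difference at 5 hours. The differences of NR4A2 and NR4A3 were negative at all 6 times, and their change over time was not called (adjusted p = 0.347 and 0.433).

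In vehicle cells alone, no member was called as changing over the 6 time points, where 3.29% of all tested genes were. By edgeR 6 members had an unadjusted p under 0.05, which were HNF4G, NR1H2, NR1H3, NR2C1, NR5A2 and RXRB. DESeq2 also called 0, with 3 at an unadjusted p under 0.05. Calls among the members appeared on leaving out EtOH replicate 2 of 3 hours, or either EtOH replicate of 9 hours. More of all tested genes were called in each of these fits too.

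Genes that work with these receptors were counted in 4 lists, named by their known roles, and their counts on the mean over the time points stand beside 36.0% called over all tested genes. Of 21 coregulators in the table, all were tested, and 8 were called on the mean over the time points, 6 higher and 2 lower, with a median log2 fold change of 0.02. PPARGC1B, which encodes the coactivator PGC-1 beta of estrogen-related receptors and PPARs, had the largest rise in that list. It was at 11.3 to 15.4 CPM with EtOH and 12.3 to 50.2 CPM with dex, with a median of 42.4 CPM, and its mean log2 fold change was 1.44 ± 0.05 (adjusted p = 4.24e-18). NCOA7, a coactivator of estrogen receptors, had the largest fall, from 78.0 to 113 CPM with EtOH to 45.5 to 92.8 CPM with dex (mean log2 fold change -0.67 ± 0.05, adjusted p = 1.09e-11).

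Of 29 genes known as targets of receptors in the set, 21 were tested and 16 called on the mean, 9 higher and 7 lower, with a median log2 fold change of 0.19. ANGPTL4, a PPAR target that is also a GC target, had the largest rise, from 2.26 to 7.56 CPM with EtOH to 14.1 to 186 CPM with dex, and its mean log2 fold change was 4.20 ± 0.18 (adjusted p = 8.02e-11). CYP24A1, the vitamin D 24-hydroxylase and the classic target of VDR, had the largest fall, from 1249.9 to 1889.9 CPM with EtOH to 229 to 1285 CPM with dex (mean log2 fold change -1.52 ± 0.06, adjusted p = 1.04e-15). Of the PPAR targets tested, ANGPTL4, PDK4 (1.91 ± 0.06) and PLIN2 (0.75 ± 0.08) were higher on the mean and CPT1A was not called. Of the retinoic acid targets, TGM2 was higher (0.63 ± 0.04), while CYP26B1 (-0.57 ± 0.06) and CYP26A1 (-0.80 ± 0.16), which degrade retinoic acid, and DHRS3 (-0.36 ± 0.16), which reduces retinaldehyde, were lower. Of the thyroid hormone targets, KLF9, which GR also induces, had a mean of 3.16 ± 0.07, and HR, a corepressor of thyroid hormone receptors, had a mean of -0.53 ± 0.07, both called. Of the LXR targets, ABCA1, a cholesterol exporter, had a mean of 0.65 ± 0.06 and SMPDL3A one of 0.40 ± 0.15, while MYLIP, which degrades the LDL receptor, had -0.79 ± 0.13 and SREBF1, a driver of lipid synthesis, -0.34 ± 0.05, all called, and ABCG1 and LPCAT3 were not called on the mean.

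Of 18 genes that make, convert or carry ligands of these receptors, 12 were tested and 7 called on the mean, 2 higher and 5 lower, with a median log2 fold change of -0.10. DIO2, the deiodinase that makes triiodothyronine, had the largest fall, from 98.7 to 140 CPM with EtOH to 12.6 to 112 CPM with dex. Its mean log2 fold change was -2.22 ± 0.06 (adjusted p = 6.88e-22), and 11 of 12 dex libraries were below all EtOH libraries. HSD11B1, which regenerates active glucocorticoids, had 2 counts over the 12 EtOH libraries and 204 over the 12 dex libraries, a ratio of 108 per read sequenced with an exact 95% counting interval of 29.5 to 899. It passed the low-count filter only through dex libraries, and without it 6 of 11 tested genes of the list were called, 1 higher and 5 lower. The higher one, HSD11B2, also passed the filter only through dex libraries. Its highest count in a library was 7 with EtOH and 24 with dex. ALDH1A1, a retinaldehyde dehydrogenase that makes retinoic acid, was the most abundant of this list and was not called (mean log2 fold change -0.08 ± 0.05, adjusted p = 0.256).

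Of 12 other nuclear receptor genes, which are not in the set, 4 were tested and 2 called on the mean, both lower, with a median log2 fold change of -0.05. NR3C1, the GR gene itself, was at 495 to 687 CPM with EtOH and 335 to 552 CPM with dex, above every member of the set, and its mean log2 fold change was -0.35 ± 0.05 (adjusted p = 1.54e-06). NR1D2, the REV-ERB beta gene of the clock, had log2 fold changes of 1.49 (3 hours) and -1.51 (5 hours), both called, and a mean of 0.09 ± 0.06. It was also called as higher at 1 and 11 hours and as lower at 7 hours.

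**Figure D4:**
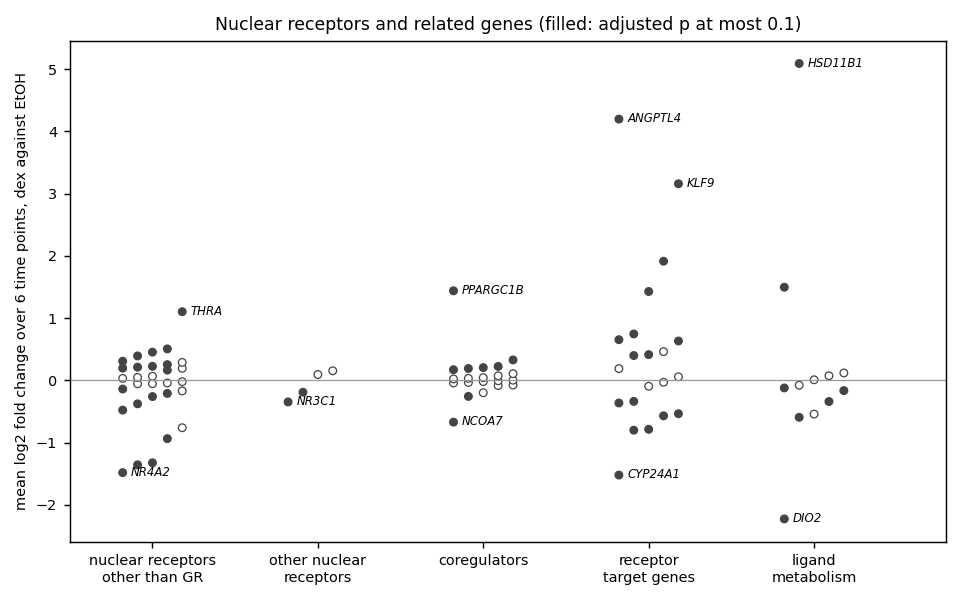
Mean log2 fold change over the 6 time points, dex against EtOH, of each tested gene of the set and of the 4 lists of related genes, with filled points where the adjusted p was at most 0.1. The nuclear receptor genes of the set lie between -1.48 (NR4A2) and 1.10 (THRA), while ANGPTL4 is at 4.20 and DIO2 at -2.22, and the fitted value of HSD11B1 rests on 2 counts with EtOH.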

How the data were processed

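A549 cells were profiled by poly-A RNA-seq. The authors mapped single-end 50-base reads of stranded libraries to GENCODE v19 transcripts with Bowtie and counted reads per transcript with samtools, and the deposited values are raw counts. How a read matching several transcripts was placed, and whether strand was used in counting, are not given in the sources used here. The labels name hg19, and they give 2 replicates where the paper's methods state triplicates. The treatment text gives 1 hour throughout, so the duration label was used.

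Transcripts were joined to GENCODE 29 genes by identifier without version (110262 of 119207 rows, 94.1% of counts) and summed per gene. The row of unplaced reads holds 0. Counts were tested with edgeR 4.0.16 (R 4.3.3), with TMM normalization, filterByExpr over 12 groups (15325 genes) and the robust quasi-likelihood test. Each time point was fitted alone, as 2 against 2 libraries. The mean over time, the change over time and vehicle cells over time used joint fits. Adjustment was by Benjamini-Hochberg over all tested genes, with a threshold of 0.1, and standard errors are the log2 fold change over the square root of F. Levels per kilobase use the count-weighted transcript length. The steps were tested on simulated data. The biological coefficient of variation was 6.49% to 12.7%. Motifs were searched in the 250 bases before 35116 RefSeq starts. Figures were drawn with matplotlib 3.10.9.

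Alternatives were DESeq2 1.42.0, its size factors, 2 other filters, a threshold of 0.05, 1 fit over 24 libraries, a replicate block, single transcripts and leaving out each library. Members called at any time or on the mean are described with values, the rest by ranges or counts, and of each related list the called genes with the largest mean change in each direction are named. Target genes other than ANGPTL4 and CYP24A1, and the genes ALDH1A1, HSD11B2 and NR1D1, were named after their values were seen. Some genes of the related lists are not reported here by name. The members and lists were chosen with earlier results of these data known.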

Additional observations from a re-analysis of the deposited data

Results flagged for a closer look

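For 7 members the difference between dex and EtOH itself differed between time points, by the test of that change in edgeR over the 24 libraries. The adjusted p of the change was 8.52e-09 for NR5A2, 0.000309 for THRA, 0.000315 for NR0B1, 0.00295 for RARB, 0.00688 for ESRRA, 0.0286 for RARA and 0.0617 for NR1I3. ESRRA was lower in both dex libraries at 1 hour and higher in both at 5 hours, and the other 6 had a log2 fold change between -0.25 and 0.08 at 1 hour. For NR1I3 the EtOH libraries at 5 hours, at 1.13 and 1.25 CPM, were also the lowest of all EtOH libraries, and its part in that difference was not tested.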

How the results depend on the processing

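The values of the 20 members called at any time or on the mean kept their direction in 199 of 199 alternatives, 25 of which lost the call and 6 of which gained one. Each member was followed there at 1 time only, that of its smallest p. The alternatives refit the same libraries, so agreement in direction at that time was likely in advance. The other times and the mean were not followed in this way. DESeq2 gave 5 called members at 3, 7, 9 and 11 hours, and it called fewer of all tested genes at these times too. Without the low-count filter 3 members were called in vehicle cells over time, where 1785 of all 26567 genes tested without it were. Leaving out 1 library gave 0 to 1 called members at 1 hour, 6 to 12 at 7 hours, 5 to 13 at 11 hours and 0 to 2 in vehicle cells, and 6 to 9 at 3 hours, 9 to 10 at 5 hours, 4 to 8 at 9 hours, 17 to 19 on the mean and 5 to 10 for a change over time. The correlation of same-numbered deviations was 0.157 at 1 hour and 0.111 at 9 hours and -0.0689 to 0.0348 at the other times, and since it was not over 0.1 at each time the replicate numbers were not taken as pairs. With the replicate number as a block, 1 member (NR2F2) was called at 1 hour and 10 at 9 hours, with NR2C1, NR2F2, NR4A3 and THRB added, while the genes called in all went from 162 to 584 at 1 hour and from 3036 to 4389 at 9 hours. ESR1 was added and PPARA lost at 3 hours, THRB was added at 11 hours, and NR2F6 was added for a change over time. With a minimum mean of 1 CPM in place of 0.5 CPM, 28 members counted as expressed in place of 31. With 6708864 to 13748598 counts in a library and 2 libraries per group, small changes of genes near 1 CPM, such as NR1H4 and ESR1, were not detectable.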
